A study of Mus musculus with 14 samples.

Results

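The comparison set the corpus against the cauda epididymis in isolated epithelial cells of the mouse, and its members were the mature miRNAs with a mean count above 10 over the libraries of either region. Of the 677 miRNAs listed for this preparation, 192 were members, and they held at least 99.7% of the counts in each of the 4 libraries. The cells came from 8-week-old male Swiss mice with no genetic change or treatment, and each region had 2 libraries. A library of corpus or caput cells was a pool of 9 mice, and one of cauda cells a pool of 12. Whole epididymal tissue, from pools of 3 mice, gave 8 further libraries, 3 of caput, 2 of corpus and 3 of cauda, that are used here for the same comparison in another preparation.

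The blood vessels of the mice were flushed with saline after death. Caudal spermatozoa were flushed out through the duct with oil and then medium, whereas those of the corpus were released through incisions, so that the regions were not cleared of spermatozoa in the same way. The study stained the isolated cells with a lectin that labels the acrosome and blotted their lysates for the sperm protein IZUMO1, and detected neither. It also stained the cells for the androgen receptor and reported seeing none that lacked it. The lysates were positive for the androgen receptor and an epithelial cytokeratin, and the paper describes the cells as highly enriched epithelium. The tissue was digested with trypsin and collagenase, and the cells that did not attach to a culture plate were kept as epithelium. The study calls the replicates biological in one place and technical in another, and the p-values measure the spread between these libraries only.

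Spermatozoa leave the testis unable to fertilize and mature as they pass along the epididymis, through the corpus and into the cauda, where they are stored. The epithelium sets the luminal environment of each region. A miRNA is a short RNA that guides an Argonaute protein to messenger RNAs, mainly by pairing of its seed, the bases 2 to 8 from the 5′ end, and miRNAs with the same seed can bind the same sites. Several miRNAs are often cut from 1 transcript, and each hairpin can give a 5p and a 3p product.

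Of the 192 miRNAs, 18 were differentially expressed, which is 9.38% of those tested, with 10 higher in the cauda (5.21%) and 8 lower (4.17%). The call needed a false discovery rate (FDR, limma-voom with Benjamini-Hochberg adjustment over the 192) below 0.05 together with a fold change of 2 or more. Among the increases, miR-486-5p and miR-3107-5p had identical counts in every library and can be read as 1 product, which leaves 17 distinct ones.

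The mature sequences of the miRNAs that were lower in the cauda are shown first, because their seeds set which family each belongs to. They are the RefSeq entries for GRCm38.p6, written 5′ to 3′ with the seed in capitals.
miR-204-5p: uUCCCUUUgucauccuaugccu
miR-210-3p: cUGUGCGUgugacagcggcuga
miR-190-5p: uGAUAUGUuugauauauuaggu
miR-141-3p: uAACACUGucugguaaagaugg
miR-148a-3p: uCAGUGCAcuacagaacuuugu
miR-98-5p: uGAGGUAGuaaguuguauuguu
miR-200c-3p: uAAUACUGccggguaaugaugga
The seed of miR-98-5p is that of the let-7 family, the seeds of miR-141-3p and miR-200c-3p belong to the miR-200 family, and that of miR-148a-3p is shared with miR-148b-3p and miR-152-3p. The last miRNA of this group, miR-375-3p, is named only.

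Of the miRNAs that were higher in the cauda, these 6 are shown in the same way.
miR-126-3p: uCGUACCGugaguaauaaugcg
miR-127-3p: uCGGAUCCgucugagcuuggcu
miR-410-3p: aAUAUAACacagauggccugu
miR-379-5p: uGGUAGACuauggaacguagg
miR-451: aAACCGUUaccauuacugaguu
miR-139-5p: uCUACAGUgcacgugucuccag
These 6 had 6 different seeds. The names miR-126-5p, miR-150-5p, miR-486-5p and miR-3107-5p are given without a sequence.

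For the let-7 family, the 4 members that passed the FDR but not the 2-fold threshold are shown, to be read beside miR-98-5p.
let-7b-5p: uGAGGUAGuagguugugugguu
let-7c-5p: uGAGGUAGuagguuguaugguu
let-7e-5p: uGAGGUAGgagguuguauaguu
let-7i-5p: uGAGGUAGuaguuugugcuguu
For the miR-200 family, the 3p products of the 3 hairpins in the other of its genomic clusters are shown, to be read beside miR-141-3p and miR-200c-3p.
miR-200a-3p: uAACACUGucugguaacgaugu
miR-200b-3p: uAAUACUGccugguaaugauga
miR-429-3p: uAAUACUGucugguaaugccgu

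The corpus libraries held 127111 and 89039 counts and the cauda libraries 283284 and 179060. A count of 10 corresponded to 78.7 and 112 CPM (reads scaled to equal library size) of the library total in the corpus, and to 35.3 and 55.8 CPM in the cauda. With the same count threshold, 149 miRNAs were identified in the corpus and 191 in the cauda, of which 148 were in both. All levels that follow are CPM scaled with TMM factors, and the first value given for a region is that of replicate 1. Mature miRNAs are of nearly the same length, but counts of different miRNAs also depend on how well each is ligated and amplified.

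Those 43 miRNAs identified in the cauda alone were members only through the region where their count was high, which favours a positive change. They had a median count of 6 in the corpus, and a single one of them, miR-139-5p, had no corpus count. After scaling, 16 of the 43 (37.2%) were at least 2-fold higher, against 15.6% of all members, and 3 (6.98%) were differentially expressed, against 9.38%, namely miR-139-5p, miR-379-5p and miR-451. The only miRNA identified in the corpus alone was miR-467a-5p, at 100.4 and 101 CPM in the corpus and 48.1 and 33.2 CPM in the cauda. It lay just inside the threshold on the mean count, as did miR-125b-2-3p, each with a mean count of 11 in the region where its count was larger, and the miRNA just outside had a mean count of 10.

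The 10 most abundant miRNAs together made up between 65.8% and 69.4% of the scaled counts in each library, and 2 of them were differentially expressed, miR-148a-3p and miR-126-5p. The most abundant in all 4 libraries was miR-143-3p, a miRNA known from smooth muscle and other mesenchymal cells, at 214007 and 197611 CPM in the corpus and 314781 and 152118 CPM in the cauda. The cauda libraries lay on either side of the corpus libraries, and its log2 fold change was 0.09 ± 0.33 (SE). The next 2 by mean level, miR-26a-5p and miR-10b-5p, had log2 fold changes of 0.05 and -0.58 with adjusted p-values of 0.837 and 0.112 (limma). The remaining members of the top 10, miR-22-3p, miR-10a-5p, miR-21-5p, let-7f-5p and miR-191-5p, had log2 fold changes between -0.38 and 0.33, and none was differentially expressed.

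**Figure D1:**
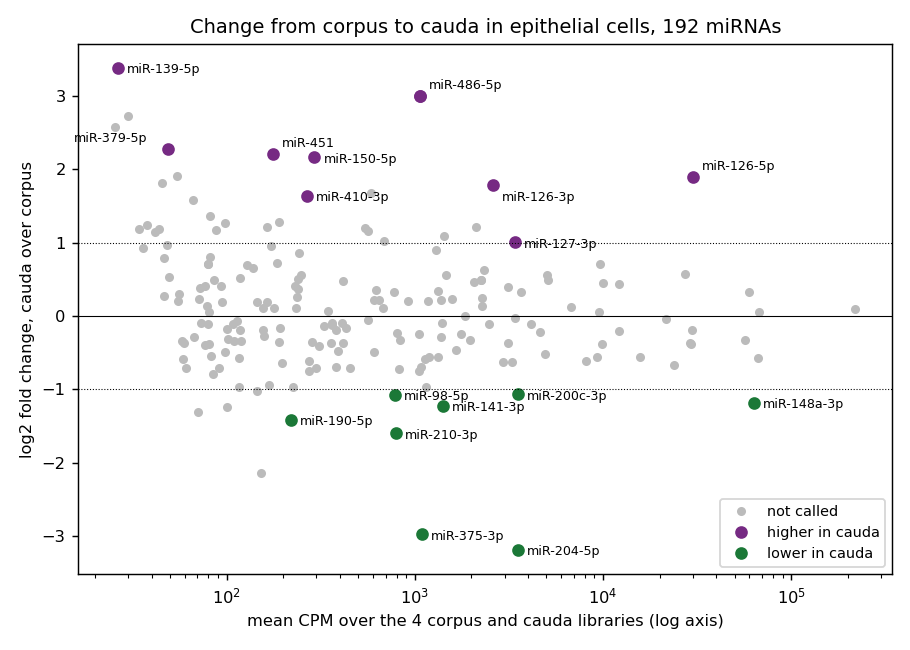
Fitted log2 fold change, cauda over corpus, of the 192 miRNAs against their mean CPM over the 4 libraries (log axis), with dotted lines at 2-fold. The 10 miRNAs higher and the 8 lower in the cauda are coloured and named (miR-3107-5p lies on miR-486-5p), and 150 of the 192 lie between the dotted lines.

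Most members stayed within 2-fold, 150 of 192 (78.1%), and the median log2 fold change was 0.05, with 97 positive and 95 negative values. The interval of the difference was narrow enough to lie within 2-fold for 55 miRNAs (28.6%, 95% interval). A further 24 miRNAs differed by at least 2-fold in the fit and did not pass the test. Both cauda libraries lay above both corpus libraries for 65 miRNAs (33.9%) and below them for 59 (30.7%), so that 64.6% of all members did not overlap between the regions. All 18 differentially expressed miRNAs were among these.

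The number of calls depended on single libraries. It was 18 with all 6 epithelial libraries, 5 without caput replicate 2, 4 without corpus replicate 1, 8 without corpus replicate 2 and 28 without cauda replicate 2, while 17 were called without either caput replicate 1 or cauda replicate 1. The caput libraries enter because 1 estimate of the spread was shared by the 3 regions. In all 12 other ways of processing and in all 6 fits without a library, 4 miRNAs were called, namely miR-204-5p, miR-210-3p, miR-126-3p and miR-126-5p. The other 14 all lost their call without corpus replicate 1. None of the 18 changed direction in any of these fits that held it. With library totals in place of TMM factors, 15 were higher and 7 lower, against 10 and 8.

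The largest decrease was that of miR-204-5p, which is made from an intron of Trpm3 (chr19:22750610-22750631, + strand, GRCm38.p6) and is known from epithelia of the eye and kidney. Its level was 7345.5 and 5404 CPM in the corpus and 625 and 773 CPM in the cauda. The cauda libraries were far below both corpus libraries, and the log2 fold change of -3.19 ± 0.22 (SE, adjusted p = 0.00028, limma) is a 9.12-fold lower level. The caput, at 26165 and 24457 CPM, stood above both. A part of its counts was fractional, and how such reads were divided, and with which miRNA, is not given in the sources used here.

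The next was miR-375-3p, known from pancreatic islets and other secretory epithelia. It was at 2117 and 1622 CPM in the corpus and at 115 and 531 CPM in the cauda, where the replicates lay far apart. Its log2 fold change was -2.97 ± 0.57 (SE, adjusted p = 0.022, limma). In the caput it was at 4190.2 and 3499 CPM, again above both other regions. Without a library the fitted change ran from -4.01 to -1.78, and it no longer passed the test with the replicate block (adjusted p = 0.055) or without caput replicate 2, corpus replicate 1 or corpus replicate 2.

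miR-210-3p is the miRNA best known for its induction by hypoxia. It was at 1229.8 and 1166 CPM in the corpus and 422 and 365 CPM in the cauda, with little spread in either region. The log2 fold change was -1.60 ± 0.21 (SE, adjusted p = 0.0063, limma), and the caput libraries, at 658 and 575 CPM, were between.

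The most abundant miRNA that fell was miR-148a-3p, at 104008 and 73522 CPM in the corpus and 34638 and 42581 CPM in the cauda. The log2 fold change was -1.19 ± 0.21 (SE, adjusted p = 0.020, limma), and the call was lost without caput replicate 2 or corpus replicate 1 (adjusted p = 0.051 and 0.074). Its caput level, 124252 and 108578 CPM, was the highest of the 3 regions. The family members with the same seed were not called. miR-148b-3p was at 586 and 568 CPM in the corpus and 555 and 559.6 CPM in the cauda, and miR-152-3p had a log2 fold change of 0.26. The 5p product of the same hairpin, miR-148a-5p, had a log2 fold change of 0.18 at a mean of 145.2 CPM.

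miR-190-5p, from an intron of Tln2, was highest in the corpus, and among the 8 decreases it was the one whose caput libraries both lay below both cauda libraries. It was at 243 and 395 CPM in the corpus, 92.4 and 147 CPM in the cauda and 18.5 and 19.3 CPM in the caput. The log2 fold change from corpus to cauda was -1.41 ± 0.37 (SE), and the adjusted p of 0.049 (limma) was the closest to the threshold of all calls. The call was lost in 4 of the 12 other ways of processing, namely edgeR's quasi-likelihood test, library totals, the corpus and cauda libraries alone and merged identical counts (adjusted p from 0.050 to 0.074), and in 5 of the 6 fits without a library, all but that without cauda replicate 2 (adjusted p from 0.069 to 0.19). miR-184-3p, placed in the same list, had the same order of regions, with 284 and 172 CPM in the corpus, 22.2 and 128 CPM in the cauda and 12.4 and 16.1 CPM in the caput, but its log2 fold change of -2.14 did not pass the test (adjusted p = 0.091, limma).

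**Figure D2:**
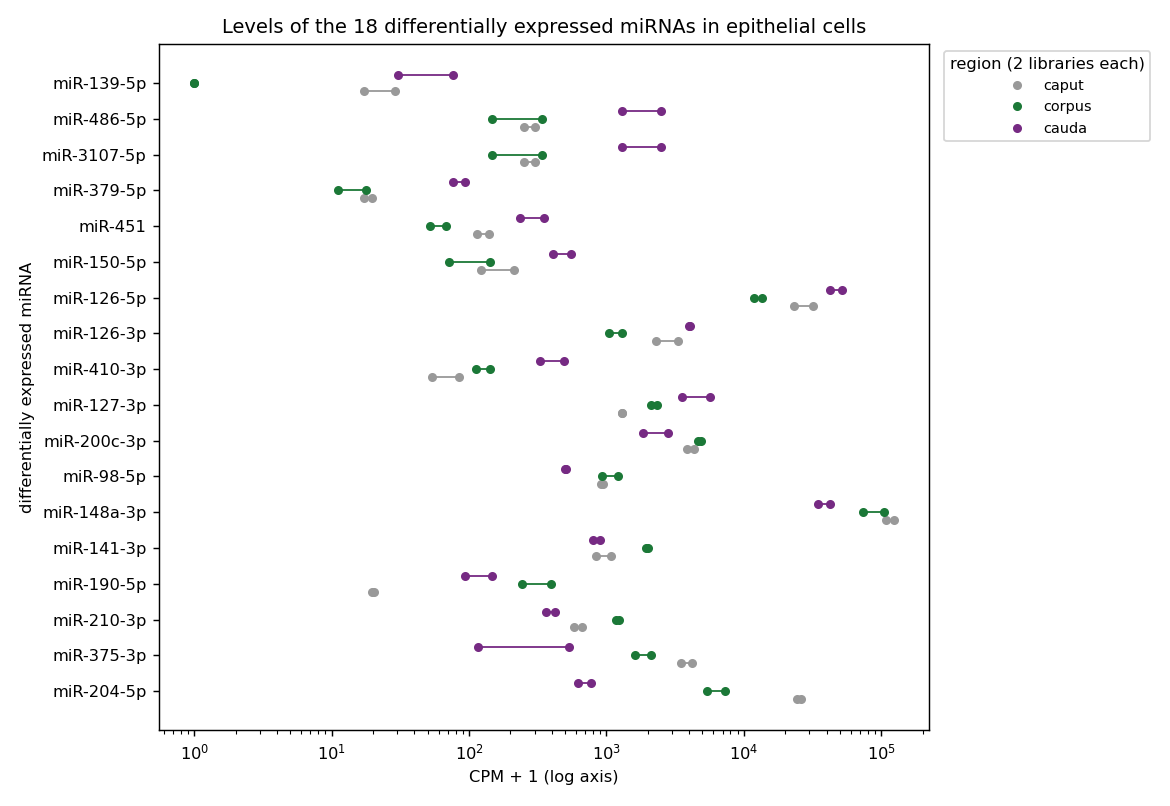
CPM plus 1 (log axis) of the 18 differentially expressed miRNAs in each epithelial library of the caput (grey), corpus (green) and cauda (purple), with a line joining the 2 libraries of a region. In every row the corpus and cauda points do not overlap, miR-139-5p has no count in the corpus, and miR-204-5p falls over both steps from caput to cauda.

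Of the 5p products of the let-7 family, whose members act in differentiation, 1 of 9 was called and 5 passed the FDR (13.0% of all members did), all with lower cauda levels. These 9 miRNAs with the seed GAGGUAG, let-7a-5p to let-7i-5p and miR-98-5p, had negative log2 fold changes from -1.07 to -0.38 with a median of -0.61, against 0.05 over all members. In each of the 9, both cauda libraries were below both corpus libraries, as in 30.7% of all members, and all 9 values were negative in all 12 other ways of processing and in all 6 fits without a library. The called miRNA was miR-98-5p, the single one also past 2-fold, and let-7a-5p, let-7d-5p, let-7f-5p and let-7g-5p missed the FDR with adjusted p-values from 0.081 to 0.16 (limma). The number of the 9 that passed the FDR ran from 2 to 6 in the other ways of processing and was 0 without caput replicate 1, caput replicate 2, corpus replicate 1 or corpus replicate 2, while miR-98-5p was also not called in the test of every miRNA detected in any library.

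miR-98-5p, from an intron of Huwe1 on the X chromosome, was at 1205 and 933 CPM in the corpus and 510.3 and 503 CPM in the cauda (log2 fold change -1.07 ± 0.21 SE, adjusted p = 0.022, limma). let-7c-5p was at 31323 and 27499 CPM in the corpus and 18992 and 18089 CPM in the cauda (-0.66 ± 0.16 SE, adjusted p = 0.040). let-7i-5p was at 11027 and 10971 CPM in the corpus and 7508 and 7457 CPM in the cauda (-0.56 ± 0.14 SE, adjusted p = 0.043). The replicates of these family members were close together, and the step between the regions was larger than the gap within either. The most abundant, let-7f-5p, was at 32996 and 33319 CPM against 25509 and 25485 CPM and missed the threshold (adjusted p = 0.11).

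Of the 3p products of the family 4 were members, and none passed the test. let-7d-3p, identified in both regions, was at 376 and 304 CPM in the corpus and 410.4 and 564 CPM in the cauda. The other 3, let-7a-1-3p, let-7b-3p and let-7c-2-3p, were members through their cauda counts alone, which favoured a positive value. For let-7b the log2 fold change was -0.62 for the 5p product and 0.97 for the 3p product, and the difference between the products was not tested. Because let-7a-1-3p and let-7c-2-3p had identical counts in every library, they are 1 measurement. Products of the let-7 family differ by few bases, and the counts of let-7a-5p, let-7b-5p, let-7c-5p, let-7g-5p and let-7i-5p held fractions, so that reads may have been split among them.

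The miR-200 family, which maintains the epithelial state by repressing Zeb1 and Zeb2, is made from 2 genomic clusters, and whether the clusters differed was not tested. From the cluster on chromosome 6 (chr6:124717914-124718390, - strand), 2 of the 3 members, miR-141-3p and miR-200c-3p, were lower in the cauda, as were 4.17% of all members. miR-141-3p was at 1995 and 1932 CPM in the corpus and 795 and 894 CPM in the cauda (log2 fold change -1.23 ± 0.20 SE, adjusted p = 0.016, limma). miR-200c-3p was at 4844 and 4614 CPM in the corpus and 1841 and 2798 CPM in the cauda (-1.07 ± 0.22 SE, adjusted p = 0.028). For both, the corpus replicates were nearly equal and above both cauda libraries. Neither was called without corpus replicate 1 or corpus replicate 2. miR-200c-3p also lost its call without caput replicate 2 (adjusted p = 0.070), with the replicate block (adjusted p = 0.055) and, by falling below 2-fold, without cauda replicate 1 or in the test of every miRNA detected in any library. The third member, miR-141-5p, was at 108.8 and 40.6 CPM in the corpus and 51.8 and 66.4 CPM in the cauda, where the regions overlapped, and was not called.

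From the cluster on chromosome 4 (chr4:156053905-156055750, - strand), none of the 5 members was called. miR-200a-3p was at 5149 and 4740.3 CPM in the corpus and 3561 and 5143 CPM in the cauda. miR-429-3p was at 2476 and 2677 CPM in the corpus and 2096 and 2713 CPM in the cauda. The regions overlapped for these miRNAs. miR-200b-3p had its cauda libraries above the corpus, at 5021 and 6962 CPM against 3957 and 4107 CPM, with a log2 fold change of 0.55 ± 0.20 (SE, adjusted p = 0.12). Without cauda replicate 1 all 3 of these values were positive. The seed AAUACUG of miR-200b-3p, miR-200c-3p and miR-429-3p thus came with log2 fold changes of 0.55, -1.07 and -0.12.

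miR-205-5p, a further miRNA of epithelia, was at 21484 and 22155 CPM in the corpus and 20092 and 22327 CPM in the cauda, with a log2 fold change of -0.04 ± 0.14 (SE). As a check of the label, the 7 epithelial marker miRNAs, which are the 5 main miR-200 family products, miR-205-5p and miR-375-3p, summed to 42023 and 41846 CPM in the corpus and to 33521 and 41367 CPM in the cauda. Products of miR-143 and miR-145, the markers of smooth muscle, summed to 218817 and 208541 CPM in the corpus and to 334444 and 157092 CPM in the cauda. Epithelial markers were therefore present in every library beside a larger sum of smooth muscle markers, and cauda replicate 1 had the highest sum of the latter. In bulk samples, fewer cells of a type and less RNA per cell cannot be told apart.

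Both products of miR-126, a miRNA of endothelial cells made from the gene Egfl7 (chr2:26591402-26591423 for miR-126-3p, + strand, within an exon of a transcript of that gene), were higher in the cauda. miR-126-5p was at 13469.5 and 11955 CPM in the corpus and 52249 and 42225 CPM in the cauda, with 32165 and 23143 CPM in the caput. The log2 fold change was 1.89 ± 0.21 (SE, adjusted p = 0.0035, limma). miR-126-3p was at 1297 and 1044 CPM in the corpus and 4023 and 4083 CPM in the cauda (1.79 ± 0.24 SE, adjusted p = 0.0066). Of the 25 hairpins with both products among the members, this was the only one with both products called. The corpus had the lowest level of the 3 regions for each product.

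Of the red blood cell miRNAs, 2 of 3 distinct ones were higher in the cauda (5.21% of all members), and miR-451 and miR-144-3p were members through their cauda counts alone. miR-486-5p, or miR-3107-5p with identical counts, was at 146 and 339.7 CPM in the corpus and 2498 and 1288 CPM in the cauda, with a log2 fold change of 2.998 ± 0.51 (SE, adjusted p = 0.016, limma). miR-451, an erythroid miRNA, was at 66.9 and 50.7 CPM in the corpus and 351 and 232 CPM in the cauda (2.20 ± 0.43 SE, adjusted p = 0.022). The regions did not overlap for either, although the replicates of miR-486-5p lay far apart. Without a library the fitted change of miR-486-5p ran from 2.37, without corpus replicate 1, to 3.60, without corpus replicate 2, and it was not called without caput replicate 2 (adjusted p = 0.051) or corpus replicate 1 (adjusted p = 0.063). miR-451 was not called without caput replicate 2, corpus replicate 1 or corpus replicate 2 (adjusted p = 0.060, 0.072 and 0.069). miR-144-3p, from the same hairpin cluster as miR-451, had counts of 0 and 1 in the corpus libraries against 16 and 7 in those of the cauda and was not called (adjusted p = 0.064).

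Of the leukocyte markers, miR-150-5p, a miRNA of mature lymphocytes, was at 142.2 and 71 CPM in the corpus and 551 and 408 CPM in the cauda (log2 fold change 2.16 ± 0.47 SE, adjusted p = 0.031, limma). It was not called without caput replicate 2, corpus replicate 1, corpus replicate 2 or cauda replicate 1 (adjusted p from 0.055 to 0.080). miR-142-5p was at 527 and 375 CPM in the corpus and 939 and 896 CPM in the cauda, and its log2 fold change of 1.02 did not pass the test (adjusted p = 0.092). The remaining leukocyte markers, miR-142-3p, miR-155-5p and miR-223-3p, were below the count threshold.

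The summed levels of these marker lists moved with the regions. Endothelial markers summed to 14766 and 12999 CPM in the corpus and 56272 and 46308 CPM in the cauda, red blood cell markers to 213 and 431 CPM against 2945 and 1577 CPM, and leukocyte markers to 728 and 507 CPM against 1575 and 1371 CPM. In each of these lists both cauda libraries were above both corpus libraries. The increases miR-126-3p, miR-126-5p, miR-486-5p, miR-451 and miR-150-5p are themselves in these lists, and the part of such cells in the increases was not tested. No defining marker of these lists was at 0 in all 4 libraries. The sum of fibroblast markers was 4233 and 4401 CPM in the corpus and 6988 and 4652 CPM in the cauda, and none of its 5 members was called.

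**Figure D3:**
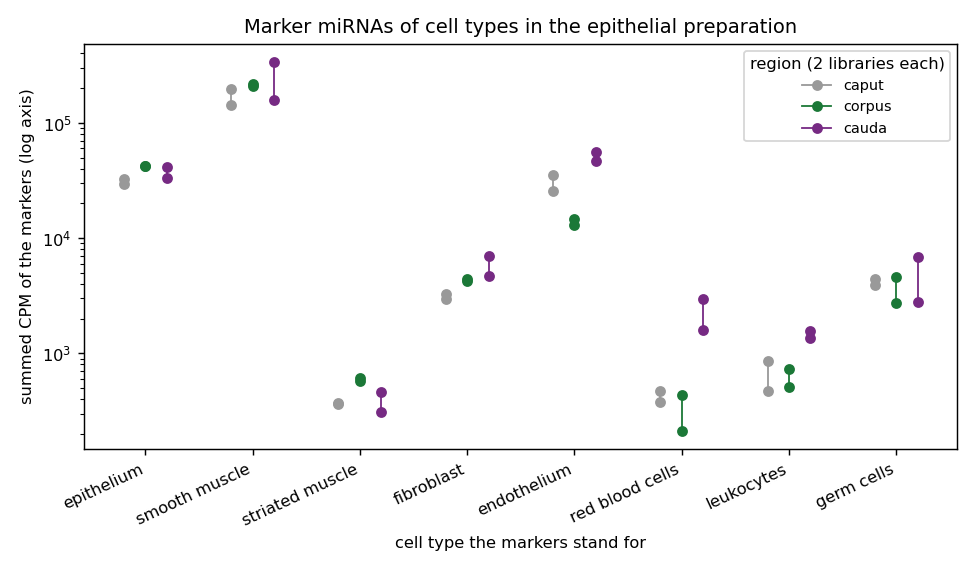
Summed CPM (log axis) of the marker miRNAs of 8 cell types in each epithelial library of the caput (grey), corpus (green) and cauda (purple). Endothelial, red blood cell and leukocyte sums are higher in both cauda libraries than in both corpus libraries, whereas smooth muscle and germ cell sums differ more between the cauda libraries than between the regions.

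The imprinted Dlk1-Dio3 region of chromosome 12, where a large group of miRNAs is made from the maternal chromosome, held 3 of the 10 increases. Of the 56 listed miRNAs of the region 9 were members. Only 4 of these, miR-127-3p, miR-410-3p, miR-411-5p and miR-434-3p, were identified in both regions. The other 5 were members through their cauda counts alone, which favoured a positive value. The region's 3 calls were miR-127-3p, miR-410-3p and, among those 5, miR-379-5p, beside 5.21% of all members called higher. The number called ran from 0, without caput replicate 2, corpus replicate 1 or corpus replicate 2, to 5.

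miR-127-3p, the most abundant of them, was at 2351 and 2109 CPM in the corpus and 5665 and 3528 CPM in the cauda, with 1289 and 1298 CPM in the caput. Its log2 fold change was 1.00 ± 0.25 (SE, adjusted p = 0.043, limma), just past the 2-fold threshold, and the fitted change ran from 0.70 to 1.33 without a library. It was called in 7 of the 12 other ways of processing, not with DESeq2 size factors, at least 10 counts in every library, the corpus and cauda libraries alone, the replicate block or miR-143-3p left out, and in 1 of the 6 fits without a library, that without cauda replicate 2. miR-410-3p, from an exon of the non-coding RNA Mirg, was at 142.2 and 112 CPM in the corpus and 492 and 327 CPM in the cauda (1.64 ± 0.39 SE, adjusted p = 0.040). It was not called with the replicate block (adjusted p = 0.060) or without caput replicate 2, corpus replicate 1, corpus replicate 2 or cauda replicate 1 (adjusted p from 0.070 to 0.12). In the study's quantitative PCR on separate pools, miR-410-3p was the only miRNA tested without a significant change. The paper says that its low expression may account for this. For both miR-127-3p and miR-410-3p the caput was the lowest region. miR-434-3p was at 477 and 233 CPM in the corpus and 924 and 621 CPM in the cauda and was not called (adjusted p = 0.091). In these 3 both cauda libraries were above both corpus libraries, as in 33.9% of all members.

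miR-379-5p rested on counts of 2 and 1 in the corpus libraries against 25 and 16 in those of the cauda, which over the group is a ratio of 6.19 with a 95% counting interval from 1.98 to 31.3. It passed the test (adjusted p = 0.028, limma), but not with DESeq2's Wald test (adjusted p = 0.11), with the corpus and cauda libraries alone (adjusted p = 0.073) or without caput replicate 2, corpus replicate 1 or corpus replicate 2 (adjusted p = 0.060, 0.12 and 0.080). miR-411-5p, from the next hairpin of the cluster, was at 343 and 203 CPM in the corpus and 1187 and 616 CPM in the cauda, and its log2 fold change of 1.67 ± 0.45 (SE) just missed the threshold (adjusted p = 0.051). It was called in every other way of processing except the replicate block, but not in every fit without a library. The remaining members, miR-541-5p, miR-381-3p, miR-409-5p and miR-300-3p, had between 1 and 5 counts in each corpus library and between 8 and 33 in each cauda library, with adjusted p-values from 0.081 to 0.35.

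miR-139-5p, from an intron of Pde2a, had no count in either corpus library and counts of 8 and 16 in the cauda. Against 3 counts over the corpus as a group, its cauda level was at least 3.63-fold higher (adjusted p = 0.031, limma). It was not called with edgeR's quasi-likelihood test or the replicate block (adjusted p = 0.060 in each), nor without caput replicate 2, corpus replicate 1 or corpus replicate 2 (adjusted p = 0.060, 0.13 and 0.070). By mean level it ranked 191 of the 192 members, at 26.4 CPM.

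A further 7 miRNAs passed the FDR without reaching 2-fold, and no miRNA did so without caput replicate 2, corpus replicate 1 or corpus replicate 2. Besides the 4 of the let-7 family, these were miR-186-5p, at 1631 and 1389 CPM in the corpus and 651 and 925 CPM in the cauda, and 2 with higher cauda levels. miR-16-5p was at 7638 and 6956 CPM in the corpus and 10937 and 13036 CPM in the cauda. miR-23a-3p was at 887 and 923 CPM in the corpus and 1934 and 1465 CPM in the cauda. In these 3 the regions did not overlap (64.6% of all members), and the log2 fold changes were -0.97, 0.71 and 0.90.

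**Figure D4:**
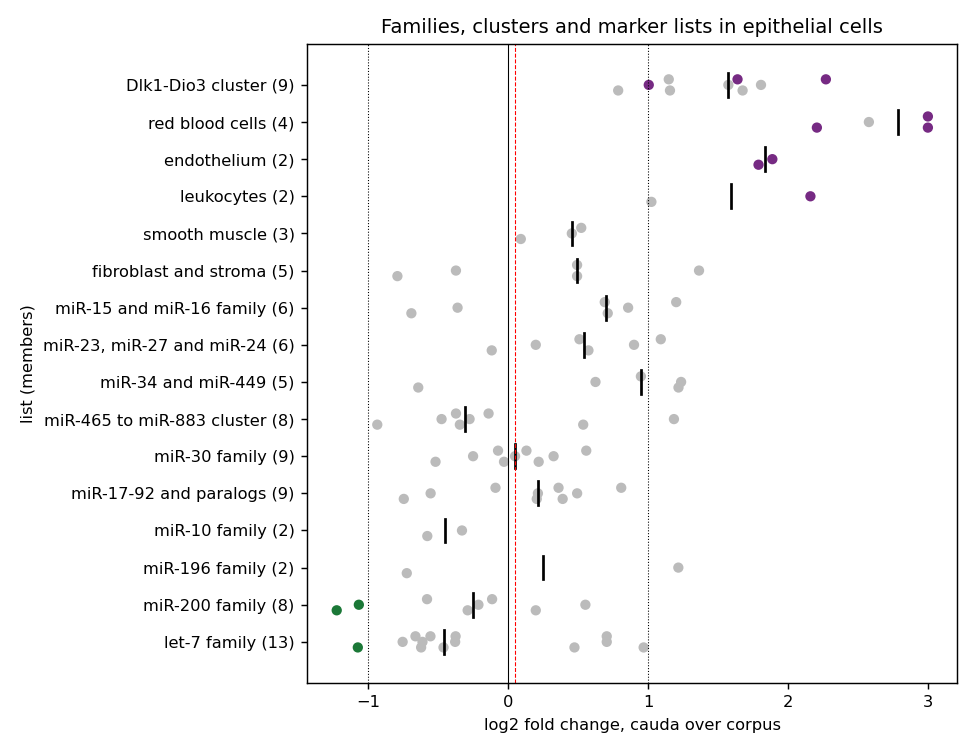
Fitted log2 fold change, cauda over corpus, of the members of 16 families, genomic clusters and cell type lists, with coloured points for called miRNAs, a black bar at the median of each list and a dashed line at the median of all 192 members. Of the Dlk1-Dio3 cluster the 4 members identified in both regions and the 5 that were members through their cauda counts alone all lie to the right of 0, and 9 of the 13 members of the let-7 family to the left.

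The other lists held few or no calls. In the miR-15 and miR-16 family, 6 members with the seed AGCAGCA had log2 fold changes from -0.69 for miR-195-5p to 1.20 for miR-322-5p, and none was called. miR-195-5p was at 1297 and 1369 CPM in the corpus and 906 and 745 CPM in the cauda, whereas miR-322-5p was at 409.9 and 253 CPM in the corpus and 761.7 and 754 CPM in the cauda. The 2 products with the seed AGGUAGU, both from Hox gene clusters, were not called either. miR-196a-5p had a log2 fold change of -0.72 and miR-196b-5p one of 1.22, with adjusted p-values of 0.066 and 0.083 (limma), and miR-196b-5p was called in 6 of the 12 other ways of processing. In the miR-23, miR-27 and miR-24 list, miR-27a-3p was at 828 and 968 CPM in the corpus and 2487 and 1439 CPM in the cauda (adjusted p = 0.061). Both miR-27a-3p and miR-322-5p were called in most of the 12 other ways of processing.

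Several abundant families held no call. In the miR-30 family, of 9 members none was called, and the log2 fold changes ran from -0.52 for miR-30b-5p to 0.56 for miR-30a-3p, with 5 positive and 4 negative. In the miR-181 family, miR-181a-5p was at 11713 and 8872 CPM in the corpus and 16746 and 11306 CPM in the cauda, with the regions overlapping. miR-25-3p, the most abundant of the 9 members of the miR-17-92 family and its paralogs, had a log2 fold change of 0.39, and the family ran from -0.75 for miR-106b-5p to 0.81 for miR-92b-3p, with 6 positive and 3 negative values. Neither of the miR-10 family members, which lie in Hox gene clusters, passed the test, although both were lower in each cauda library than in each corpus library (30.7% of all members), with log2 fold changes of -0.58 for miR-10b-5p and -0.33 for miR-10a-5p. The sensory and epithelial cluster of miR-183, miR-96 and miR-182 was not called either, and miR-182-5p was at 4468 and 3529 CPM in the corpus and 2326 and 2893 CPM in the cauda (adjusted p = 0.091, limma).

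Among scarce miRNAs, large fitted changes often missed the test. miR-365-3p had counts of 0 and 1 in the corpus libraries against 22 and 6 in those of the cauda (adjusted p = 0.081, limma). miR-29a-5p was at 50.2 and 50.7 CPM in the corpus and 159 and 90.1 CPM in the cauda, whereas miR-29a-3p, the main product of that hairpin, had a log2 fold change of -0.10. miR-450a-5p was at 58.6 and 50.7 CPM in the corpus and 163 and 119 CPM in the cauda. In miR-365-3p, miR-29a-5p and miR-450a-5p, which were members through their cauda counts alone, the cauda libraries were above the corpus (33.9% of all members), and none was differentially expressed.

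No marker miRNA of germ cells was called. Their marker sum was 4618 and 2707 CPM in the corpus and 2784 and 6909 CPM in the cauda, and for 3 of the 11 members among them both cauda libraries were above both corpus libraries (33.9% of all members), while the other 8 overlapped. miR-34c-5p, abundant in spermatozoa and in the ciliated cells of other tracts, was at 1853 and 1526 CPM in the corpus and 1634 and 4278 CPM in the cauda, with the difference in 1 cauda library alone. miR-34b-5p, from the same gene cluster, was at 121 and 76.0 CPM in the corpus and 122 and 365 CPM in the cauda, and miR-449a-5p, with the same seed as miR-34b-5p, at 25.1 and 10.1 CPM and 29.6 and 85.4 CPM. Without cauda replicate 1 both miR-34b-5p (log2 fold change 1.81, adjusted p = 0.023, limma) and miR-34c-5p (1.37, adjusted p = 0.0069) were called higher in the cauda. The X-linked cluster from miR-465 to miR-883, expressed in testis, had 8 members with a median log2 fold change of -0.31 and no call. Its most abundant member, miR-871-3p, was at 627 and 294 CPM in the corpus and 288 and 351 CPM in the cauda.

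Members of a family often had log2 fold changes of opposite sign. RefSeq gave a sequence for 165 of the 192 miRNAs, and these carried 113 seeds, of which 28 were shared by at least 2 members. Members with identical counts taken as 1, 27 families had at least 2 members, and in 13 of them all log2 fold changes had the same sign, whether or not they passed the test. Of the 28 families, 4 held a called member, and in none were all members called. Of the 25 hairpins with both products measured, 16 had log2 fold changes of the same sign, and 21 had products that differed by less than 2-fold in their change.

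Whole tissue from the same regions was measured in separate libraries. Of the 189 members listed there, 44 were differentially expressed between corpus and cauda (23.3%), against 27.3% of all 341 miRNAs tested in tissue. The fold changes had the same sign in both preparations for 133 of 189 (70.4%), and across these miRNAs, which are not independent, Pearson's r was 0.637. The tissue libraries are also deeper, with a median SE of 0.14 on the log2 scale against 0.33 in the epithelial cells.

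The 8 miRNAs that were lower in the epithelial cauda were lower in the tissue cauda as well, and 7 of them passed the test there (12.9% of all tested were called lower). miR-204-5p was at 5932 and 5042 CPM in tissue corpus and at 287, 327 and 372 CPM in tissue cauda, a log2 fold change of -4.06. miR-375-3p was at 5362 and 2995 CPM in tissue corpus and at 548, 493 and 470.4 CPM in tissue cauda (-2.99). miR-148a-3p was at 115444 and 105501 CPM and at 43434, 39398 and 38079 CPM (-1.45). The exception was miR-98-5p, with a tissue log2 fold change of -0.34 (adjusted p = 0.083, limma).

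Among the 9 increases with a tissue test, 8 had the same sign and miR-486-5p alone was called (14.4% of all tested were called higher). It was at 196 and 174 CPM in tissue corpus and at 741, 1005 and 1202 CPM in tissue cauda (log2 fold change 2.38). Though not called, miR-410-3p was at 258 and 256 CPM in tissue corpus and at 520, 520 and 445 CPM in tissue cauda. miR-127-3p was at 2933 and 3001 CPM in tissue corpus and at 4173, 4093 and 4078 CPM in tissue cauda. miR-126-5p was nearly level, at 13665 and 12914 CPM in tissue corpus and 15571, 15772 and 15167 CPM in tissue cauda (0.22). Levels of the preparations were scaled separately.

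A test of the difference itself, the interaction of preparation and region, called 14 of 189 miRNAs at an FDR below 0.05 (7.41%), with 7 in each direction (3.70%). This even split was not kept in several other fits, as given below. The epithelial change was higher than that of tissue by 1.40 ± 0.19 (log2, SE) for miR-126-5p and by 1.16 ± 0.24 for miR-126-3p, and both were called in all 11 alternatives run for this test. It was also higher for miR-150-5p, miR-139-5p, miR-322-5p, miR-17-5p and miR-200b-3p. For miR-200b-3p the levels in tissue were 2234 and 2119.7 CPM in the corpus and 1477, 1111 and 1204 CPM in the cauda, a change opposite in sign to that in the epithelial cells.

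The epithelial change was lower than that of tissue for miR-143-3p, miR-193-3p, miR-196a-5p, miR-195-5p, let-7c-5p, let-7a-5p and miR-181c-5p. miR-143-3p was at 79825 and 75730.3 CPM in tissue corpus and at 244535, 221698 and 246968 CPM in tissue cauda, a log2 fold change of 1.61 against 0.09 in the epithelial cells. The count of these calls also turned on single libraries, at 9 without epithelial corpus replicate 2, 28 without epithelial cauda replicate 2, 6 without either tissue corpus library, 26 without tissue cauda replicate 1 and 25 without tissue cauda replicate 3. With library totals the median over all members moved from -0.11 to 0.20, and the split of calls became 16 higher and 4 lower. Single libraries moved it as far. The median was 0.29 without epithelial corpus replicate 1, 0.24 without epithelial corpus replicate 2 and 0.30 without epithelial cauda replicate 2. Without tissue cauda replicate 1 it was 0.20, with 20 higher and 6 lower, and without tissue cauda replicate 3 it was 0.26, with 21 and 4. Without any other library it lay from -0.16 to -0.07. The preparations also differ in depth, which cannot be told apart from the preparation.

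**Figure D5:**
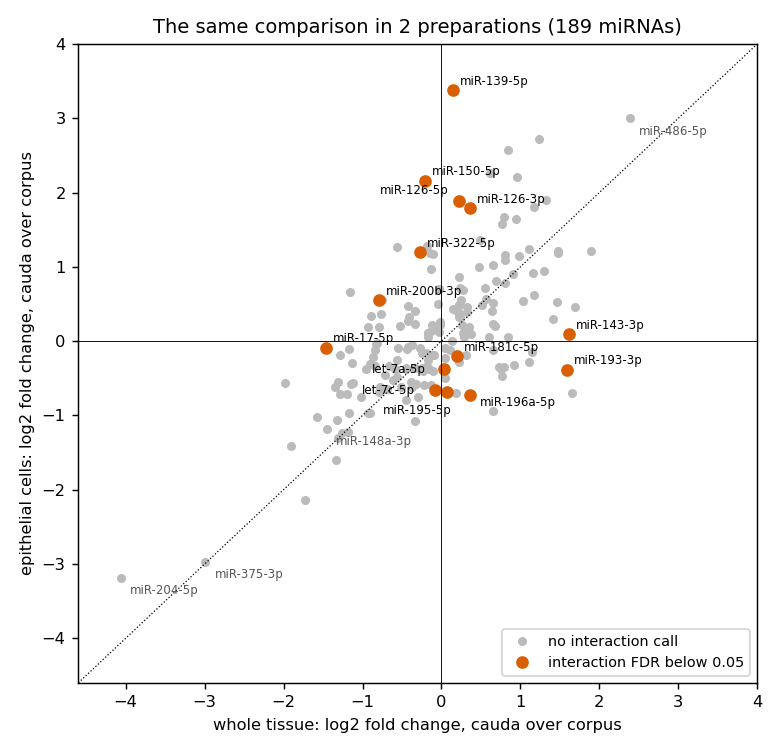
Fitted log2 fold change, cauda over corpus, in epithelial cells against that in whole tissue, for 189 miRNAs, with the 14 of the interaction test in orange and a dotted line where both are equal. miR-204-5p and miR-375-3p lie at the lower left in both preparations, while miR-126-5p, miR-150-5p and miR-139-5p lie high on the epithelial axis and near 0 on the tissue axis.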

How the data were processed

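Small RNA of isolated epithelial cells and whole tissue was sequenced, and the authors removed reads of PhiX, adaptors, the mitochondrion and rRNA before alignment to mm10 and to mature miRNAs of miRBase. The submitters' processing notes name CASAVA 1.8.2, Bowtie 1.1.1 and limma. For both preparations the values deposited are expected counts for each mature miRNA without normalization by the authors, and 33 of the 192 members had fractional values. How shared reads were divided is not given in the sources used here. In the table of epithelial cells a constant of 0.001 had been added to every value and was removed.

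Counts were rounded, normalized by TMM (edgeR 4.0.16) and fitted in R 4.3.3 by limma-voom (version 3.58.1) with 1 mean a region and without a replicate block, over all 6 epithelial libraries and the 216 miRNAs with a mean count above 10 in any region. The Benjamini-Hochberg adjustment was over the 192 members, and a call needed an FDR below 0.05 and at least 2-fold. Whole tissue was fitted in the same way over 8 libraries, and the interaction over 14 libraries, with names matched after adding a final letter a where only that form was listed. Standard errors are those of the fit, adjusted p-values without a named tool are from limma, and p-values are two-sided. Only the epithelial comparison was tested on simulated data before use, with the same spread set for all regions, and the tissue and interaction fits were not.

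Named miRNAs are the calls, the 10 most abundant members, the most abundant and most changed member of each list, and the calls of the interaction. Others were named after their values were seen, to complete a family or list. Members and lists were chosen with earlier results of these data known. The replicates differed by more than sampling noise, with a chi-square of 8.85 per degree of freedom in the corpus and 75.9 in the cauda. Intervals and floors on counts cover counting error only. Alternatives were edgeR's quasi-likelihood test, DESeq2 1.42.0 (Wald test or size factors), library totals, other filters, 2 regions only, a replicate block, merged identical counts and each library left out. A further 3 (the 192 members alone, a crossed block and miR-143-3p left out) were added after seeing the data. Hairpins no more than 10 kb apart on 1 strand formed a cluster, and host genes are from GENCODE vM21.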

Additional observations from a re-analysis of the deposited data

Results flagged for a closer look

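The change from corpus to cauda differed between the epithelial cells and whole tissue, by the interaction test in limma-voom, for 14 of 189 miRNAs (7.41%). The differences that follow are log2 values, epithelial minus tissue, with an FDR below 0.05. Positive values were 2.94 for miR-139-5p, 2.11 for miR-150-5p, 1.40 for miR-126-5p, 1.20 for miR-322-5p, 1.16 for miR-126-3p, 1.11 for miR-17-5p and 1.07 for miR-200b-3p. The corpus libraries of miR-139-5p had no count in the epithelial preparation, so that its value depends on the prior count of the fit. Negative values were -2.24 for miR-193-3p, -1.78 for miR-143-3p, -1.35 for miR-196a-5p, -1.03 for miR-195-5p, -0.84 for let-7c-5p and -0.67 for each of let-7a-5p and miR-181c-5p. No group held 4 or more epithelial libraries, and single libraries were therefore not examined as outliers.

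Over 11 alternatives the direction of all 14 differences was kept, but their size moved. The difference ran from -0.72 to -0.21 for let-7a-5p, -0.75 to -0.11 for miR-181c-5p and -2.26 to -0.92 for miR-143-3p. For miR-139-5p it ran from 2.68 to 7.99 and for miR-126-3p from 1.15 to 1.67. Both products of miR-126 passed in all 11, miR-196a-5p in 10, and let-7c-5p, miR-143-3p and miR-200b-3p in 9 each. miR-17-5p, miR-193-3p and miR-322-5p passed in 8 each, and miR-139-5p and miR-150-5p in 7 each. let-7a-5p passed in 1, and miR-181c-5p and miR-195-5p in 2 each. miR-17-5p was at 351 and 385 CPM in the epithelial corpus and 299 and 413 CPM in the cauda, whereas in tissue it was at 227 and 241 CPM in the corpus and at 92.4, 84.6 and 77.0 CPM in the cauda. miR-193-3p was at 109 and 71.0 CPM in the epithelial corpus and 96.1 and 47.4 CPM in the cauda, and in tissue at 65.0 and 63.0 CPM in the corpus and 156, 211 and 222 CPM in the cauda. Markers of smooth muscle moved with the last comparison too, with 3 of 3 members, of which miR-143-3p is itself among the 14, called higher in the tissue cauda (14.4% of all tested) and none in the epithelial cauda (5.21%). Members of 2 further lists were also called higher in the tissue cauda and not in the epithelial cauda. These were 4 of 5 of miR-34 and miR-449 and 4 of 8 of the miR-465 to miR-883 cluster, none among the 14. The part of these lists and of smooth muscle in the differences was not tested.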

How the results depend on the processing

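The 18 epithelial calls became 36 when the test covered all 553 miRNAs detected in any epithelial library, of which 16 were among the 18, and 28 with the crossed replicate block. Leaving out a library gave from 4 to 28 calls. The other ways of processing gave from 14 to 22, with 18 by edgeR's quasi-likelihood test and 22 by DESeq2's Wald test. miR-411-5p, miR-27a-3p, miR-322-5p and miR-196b-5p were called in other ways of processing but not in the fit reported. miR-411-5p was called in each of them except the replicate block, and miR-27a-3p except the replicate block and the corpus and cauda libraries alone. miR-322-5p was called in all but these and edgeR's quasi-likelihood test, and miR-196b-5p in several. Same-numbered libraries did not all deviate together, with a correlation over 192 miRNAs of -0.26 between corpus and cauda replicate 1, 0.16 between corpus and caput replicate 1 and -0.26 between cauda and caput replicate 1, and the crossed pairing of corpus and cauda, 0.26, is a mirror of the first. With the numbers as a replicate block there were 14 epithelial calls, 13 of them shared, and 46 in tissue against 44. No call of the 18 changed direction. The tissue count ran from 41 to 46 without a library. The interaction count of 14 became 27 with edgeR's quasi-likelihood test and from 6 to 28 without a library. Depth limits the scarce miRNAs most, since 10 counts are 112 CPM in the smaller corpus library. Without a library, a region with 1 library left is assumed to vary like the others.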
